A study of Mus musculus with 11 samples.

Results

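A set of 10 inflammatory cytokine receptor genes was followed in sorted mouse sensory neurons. They were picked by name as chains of the interleukin-1 (Il1r1, Il1rap), interleukin-6 (Il6ra), interleukin-4 and interleukin-13 (Il4ra, Il13ra1), interleukin-17 (Il17ra), interleukin-10 family (Il10rb), tumour necrosis factor (Tnfrsf1a) and TGF-beta (Tgfbr1, Tgfbr2) receptors, and all 10 were found among the 55401 genes listed. The neurons came from trigeminal ganglia, which innervate the face and mouth, and were sorted for the retrograde tracer DiI. MOC1 animals carried a mouse oral squamous cell carcinoma line of that name (6 libraries, 3 from females and 3 from males), and sham animals were the controls (5 libraries, 3 from females and 2 from males). Strain, age and the time after implantation are not given in the sources used here, and no genetic change or drug is named for either arm.

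These receptors work as assemblies of chains. IL1R1 binds interleukin-1 and signals once IL1RAP joins it. IL-6 receptor alpha hands its ligand to gp130, the product of Il6st, and IL-4 receptor alpha pairs with IL13RA1 or the common gamma chain. IL17RA works with IL17RC, IL10RB is a shared chain for several ligands of the IL-10 family, TNFRSF1A is the main receptor of soluble TNF, and TGFBR2 recruits and activates TGFBR1. Sensory neurons are known to respond to several of these cytokines with altered excitability. Gene counts measure RNA of a whole gene and do not tell membrane-bound from soluble protein forms.

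Each library held between 10757426 and 16703797 counts assigned to genes. All 20 pan-neuronal markers were detected and their summed level was 14460 ± 340 CPM (counts scaled to library size) in MOC1 libraries and 12170 ± 915 CPM in sham libraries (SD, n = 6 and 5, two-sided exact permutation test, adjusted p = 0.00648 over the marker lists). Of these 20 markers, 10 were called higher with tumour and none lower. Among all 16817 genes tested, 2.34% were called higher and 4.28% lower (edgeR's quasi-likelihood test, adjusted p under 0.05). These shares stand beside each count of called markers given here. The sort also carried other cells. Of 16 satellite glia markers, genes of the cells that wrap sensory neuron bodies, 15 were lower with tumour and none was at 0. Their sum ranged between 3654 and 6546 CPM in MOC1 libraries and between 10100 and 12120 CPM in sham libraries (adjusted p = 0.00648, same exact test). Fibroblast markers summed to 67.6 ± 5.62 CPM in MOC1 libraries and 129 ± 36.9 CPM in sham libraries (SD, adjusted p = 0.00648, same exact test). Of the 9 listed, 8 were tested and 1 was called lower, with Dpt at 0 throughout. Schwann cell markers summed to 1794 ± 53.4 CPM in MOC1 libraries and 1940 ± 117 CPM in sham libraries (SD, adjusted p = 0.0311, same exact test), with 5 of 14 called lower and 1 called higher. Macrophage markers summed to 25.6 ± 9.10 CPM in MOC1 libraries and 33.6 ± 19.7 CPM in sham libraries (SD, adjusted p = 0.548, same exact test). T and B lymphocyte markers stayed at or below 1.10 CPM in MOC1 libraries and 1.69 CPM in sham libraries in sum. Squamous tumour markers summed to 450 ± 41.3 CPM in MOC1 libraries and 438 ± 28.7 CPM in sham libraries (SD, adjusted p = 0.608, same exact test). Of the 12 listed, 6 passed the filter and none of these was called, and 4, Krt5, Krt6a, Krt17 and Dsc3, were at 0 in every library. Most of that sum was Cdh1, the E-cadherin gene, named after its values were seen, at 444 ± 42.8 CPM in MOC1 libraries and 424 ± 28.3 CPM in sham libraries (SD). In sorted populations of this kind, fewer cells of a type and less RNA per cell cannot be told apart. Separate animals behind the libraries are not stated in the labels, so p-values measure the spread between libraries, part of which may be technical.

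All 10 receptor genes passed the filter on low counts and were tested, and 1 of them, Il1rap, changed. It was lower with tumour, against a background of 4.28% of the 16817 genes tested being called lower and 2.34% higher at an adjusted p under 0.05 (edgeR's quasi-likelihood test, Benjamini-Hochberg adjustment). Of the 10, 2 had an unadjusted p under 0.05, Il1rap and Tgfbr2. In the edgeR fit with another scaling (DESeq2 size factors), which called 1116 genes in place of 1113, 3119 of 16817 genes did. The median log2 fold change of the 10 was -0.04, and that of all genes tested was -0.03. Il1rap was also the member for which every MOC1 library lay below every sham library, a pattern held by 4.18% of all genes tested. No receptor lay wholly above, as 2.15% of genes did.

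**Figure D1:**
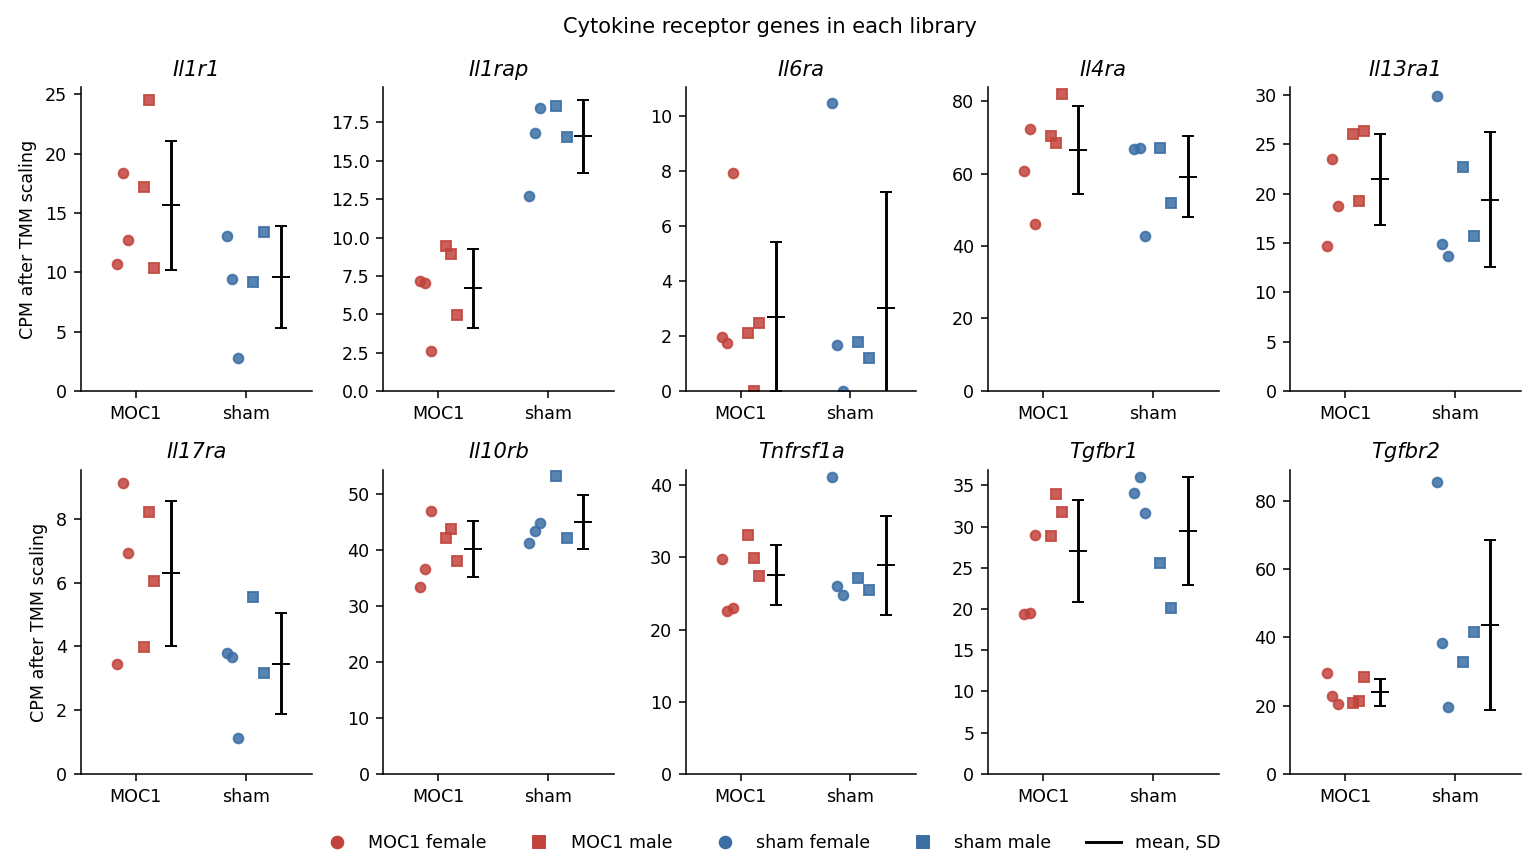
Normalized level of each of the 10 receptor genes in each library (CPM after TMM scaling, linear axis starting at 0), MOC1 left and sham right, circles for females and squares for males. Black bars show the arm mean and SD, and those of Il6ra end at 0. Il1rap separates the arms, with MOC1 libraries at 2.57 to 9.46 CPM and sham libraries at 12.7 to 18.6 CPM.

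Il1rap (chr16:26581704-26730117, plus strand, GRCm38) encodes the accessory protein without which the interleukin-1 receptor does not signal. Its lowest, median and highest levels in MOC1 libraries were 2.57, 7.10 and 9.46 CPM. In the sham females it stood at 12.7, 16.8 and 18.4 CPM, and in the sham males at 18.6 and 16.5 CPM. The arms did not overlap, and the highest MOC1 library, a male, stayed below the lowest sham library, a female. The means were 6.69 ± 2.57 CPM in MOC1 libraries and 16.6 ± 2.38 CPM in sham libraries (SD, n = 6 and 5). The log2 fold change was -1.36 ± 0.30 (SE, 95% interval -1.98 to -0.74, adjusted p = 0.00711), which puts the MOC1 level at 0.389 times that of sham. Counts behind these levels ran between 35 and 147 in MOC1 libraries and between 207 and 312 in sham libraries. With each library left out in turn the change lay between -1.44 and -1.17 and stayed called, with adjusted p between 0.00407 and 0.0262.

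Il1r1 (chr1:40225080-40317257, plus strand), the ligand-binding chain of the same receptor, did not follow. It had a lowest, median and highest level of 10.4, 14.9 and 24.5 CPM in MOC1 libraries. Sham females had 13.0, 9.45 and 2.78 CPM, and sham males 9.22 and 13.4 CPM. The arms overlapped, with 3 MOC1 libraries above the whole sham range. The log2 fold change of 0.68 ± 0.34 (SE, 95% interval -0.03 to 1.38) did not pass the threshold (adjusted p = 0.295).

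The balance of the 2 chains within a library does not depend on how libraries are scaled. The log2 ratio of Il1rap to Il1r1, with 0.5 CPM added to each, ran between -2.10 and -0.55 in the MOC1 libraries. In the sham libraries it ran between -0.04 and 2.53. All 6 MOC1 libraries thus held less Il1rap than Il1r1 by this measure, and the arms did not overlap. The mean ratio was -1.20 ± 0.54 in MOC1 libraries and 0.91 ± 0.99 in sham libraries (SD), a difference of -2.11. Its two-sided exact permutation p was 0.00216, the smallest that 462 regroupings allow, and 0.0173 after adjustment over the 8 ratios tested. Leaving out any 1 sham library kept it called, while without any 1 MOC1 library the adjusted p was 0.0635, where the unadjusted p of 0.00794 was the smallest that 252 regroupings allow, and the difference lay between -2.35 and -1.71 throughout. Counts are per gene without correction for length, so the ratio compares libraries and not the amounts of the 2 chains.

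**Figure D2:**
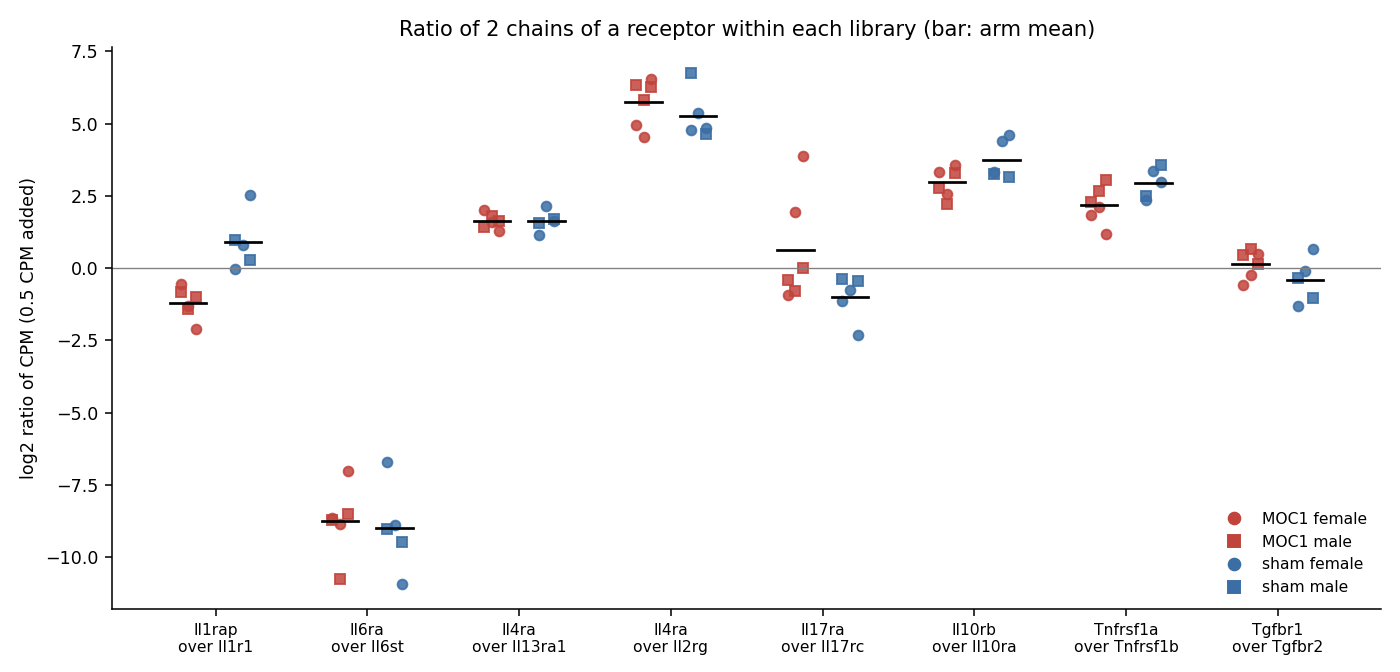
Log2 ratio of 2 chains of a receptor within each library for the 8 pairs tested, MOC1 left (red) and sham right (blue) in each pair, circles for females, squares for males and bars for the arm mean. For Il1rap over Il1r1 the MOC1 libraries lie between -2.10 and -0.55 and the sham libraries between -0.04 and 2.53, while the arms of every other pair overlap.

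The start regions of these 2 genes are shown because they are the 2 chains of 1 receptor whose balance differed between the arms. Each window runs from 250 bases before to 50 bases after an annotated start (RefSeq, GRCm38.p6, plus strand, 5′ to 3′), and capitals mark GC boxes, GGGCGG on either strand. Il1rap has 1 window at chr16:26581455-26581754, and Il1r1 has 2, at chr1:40224830-40225129 and chr1:40266336-40266635.
Il1rap: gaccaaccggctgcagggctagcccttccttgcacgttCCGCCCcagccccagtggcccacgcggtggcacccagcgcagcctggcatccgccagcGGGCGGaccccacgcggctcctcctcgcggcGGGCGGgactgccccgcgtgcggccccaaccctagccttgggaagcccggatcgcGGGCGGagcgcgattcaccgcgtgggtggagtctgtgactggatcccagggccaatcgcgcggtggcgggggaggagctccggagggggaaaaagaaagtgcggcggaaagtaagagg
Il1r1 first start: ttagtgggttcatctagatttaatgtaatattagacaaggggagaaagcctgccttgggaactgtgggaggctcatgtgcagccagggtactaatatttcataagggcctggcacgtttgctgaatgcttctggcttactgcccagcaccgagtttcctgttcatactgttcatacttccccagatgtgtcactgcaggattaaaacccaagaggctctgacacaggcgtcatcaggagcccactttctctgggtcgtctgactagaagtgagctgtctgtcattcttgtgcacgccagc
Il1r1 second start: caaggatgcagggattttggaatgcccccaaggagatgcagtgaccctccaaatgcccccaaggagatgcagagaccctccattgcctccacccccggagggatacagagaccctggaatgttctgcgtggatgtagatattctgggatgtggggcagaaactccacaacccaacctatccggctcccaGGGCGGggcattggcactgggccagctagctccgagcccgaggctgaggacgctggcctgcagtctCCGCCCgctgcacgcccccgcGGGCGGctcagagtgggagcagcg
The Il1rap window is a CpG-rich one, with 33 CpG pairs and 72% G and C, above 91.4% of all 32851 windows in CpG content, and holds 4 GC boxes. The first Il1r1 window has 5 CpG pairs, 49.3% G and C and no GC box, and the second has 14 CpG pairs, 63.3% G and C and 3 GC boxes. Over all windows the median was 7 CpG pairs and 52.7% G and C, and 35.7% held a GC box. None of the 3 held a STAT motif (TTCNNNGAA, in 8.3% of all windows), an AP-1 motif (TGANTCA, in 7.81%) or a SOX motif (ACAAAG or ACAATG, in 28.6%), on either strand. These matches describe letters in a window and say nothing of what binds there. Windows were found for 8 of the 10 receptors.

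Satellite glia markers moved with Il1rap and with its ratio to Il1r1. Per 1000 CPM of the satellite glia sum, Il1rap stood at 1.09, 1.47 and 0.691 CPM in MOC1 females and 1.90, 1.55 and 1.10 CPM in MOC1 males. In sham females it stood at 1.25, 1.39 and 1.76 CPM and in sham males at 1.73 and 1.52 CPM, so the arms overlapped on this scale. Per 10000 CPM of the pan-neuronal sum they did not, at 1.74 to 6.75 CPM in MOC1 libraries and 11.7 to 14.6 CPM in sham libraries. Il1rap already separated the arms before this division, and every MOC1 pan-neuronal sum lay above every sham sum. Dividing could thus only widen the gap, so this outcome was fixed in advance and tests nothing. With libraries scaled to the satellite glia list, which moved the median of all genes tested to 1.11, the log2 fold change of Il1rap was -0.28 (adjusted p = 0.495). With the satellite glia share as a term in the fit it was 0.43 ± 0.83 (SE, adjusted p = 0.924), and edgeR called no gene at all in that fit (1154 at an unadjusted p under 0.05). Since the satellite glia sums of the arms do not overlap, the glial share and the tumour arm cannot be told apart in these libraries.

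**Figure D3:**
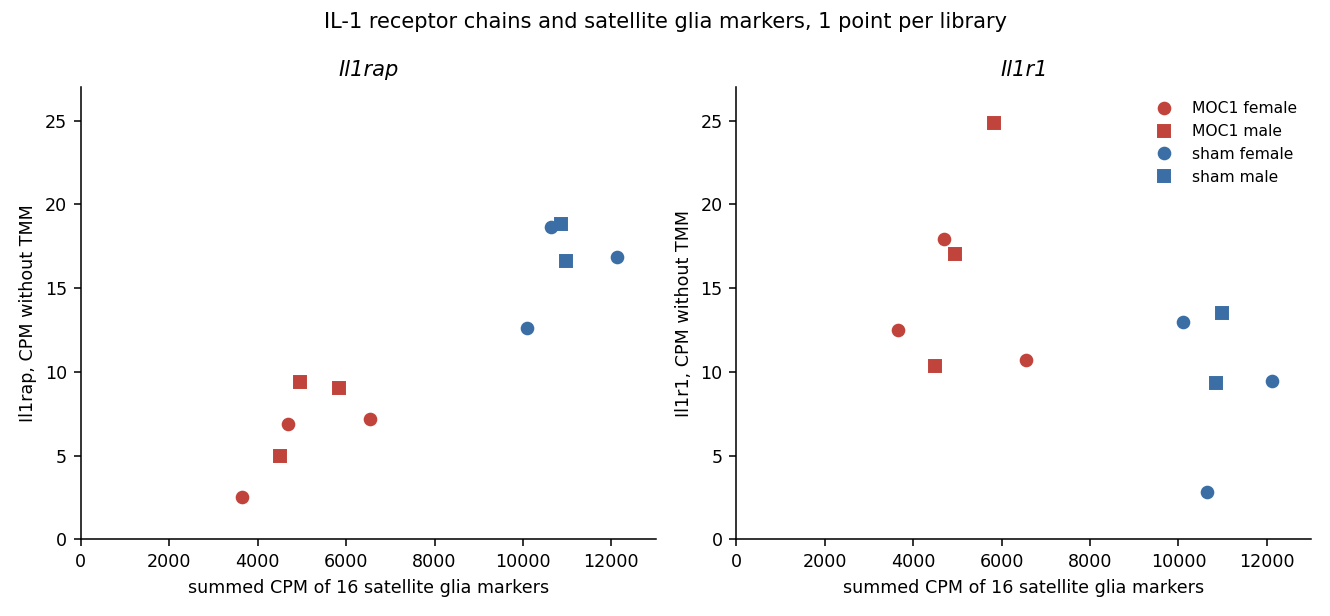
Level of Il1rap (left panel) and Il1r1 (right panel) in CPM without TMM against the summed CPM of 16 satellite glia markers, 1 point per library, MOC1 in red and sham in blue. MOC1 libraries lie between 3654 and 6546 CPM on the glial axis and sham libraries between 10100 and 12120 CPM, and Il1rap is low in the arm where the glial sum is low, whereas Il1r1 is not.

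By a root mean square difference of centred log2 CPM over the 11 libraries, the 3 genes most like Il1rap among 11304 ranked were Plxnb3, a semaphorin receptor (0.190), Smoc1, a secreted calcium-binding matrix protein (0.233), and Ston1, an endocytic adaptor (0.244). Plxnb3 averaged 22.5 ± 7.40 CPM in MOC1 libraries and 54.3 ± 4.69 CPM in sham libraries (SD). Smoc1 averaged 18.1 ± 6.40 CPM in MOC1 libraries and 36.6 ± 6.03 CPM in sham libraries (SD). Ston1 averaged 8.15 ± 2.39 CPM in MOC1 libraries and 20.3 ± 4.95 CPM in sham libraries (SD). They were picked for their likeness to a called gene, so their fall is a description.

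Tgfbr2 (chr9:116084293-116175360, minus strand), the ligand-binding TGF-beta receptor kinase, came next in size among the lower values but did not pass the threshold. In MOC1 libraries its lowest, median and highest levels were 20.4, 22.2 and 29.5 CPM. The sham females had 85.7, 38.4 and 19.6 CPM, and the sham males 32.8 and 41.7 CPM. The arms overlapped through sham female 3, the lowest of all 11 libraries, while the other 4 sham libraries lay above every MOC1 library. The means were 23.9 ± 4.0 CPM in MOC1 libraries and 43.6 ± 25.0 CPM in sham libraries (SD), with a log2 fold change of -0.84 ± 0.26 (SE, 95% interval -1.39 to -0.28, unadjusted p = 0.00519, adjusted p = 0.0673).

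The Tgfbr2 value depended on single libraries, and vascular markers went with it in some sham libraries but not in others. The summed level of 17 endothelial and mural markers, genes of blood vessel cells, was between 236 and 362 CPM in MOC1 libraries and between 276 and 1713 CPM in sham libraries. It did not pass the threshold (two-sided exact permutation test, adjusted p = 0.104). Of the 16 markers tested 2 were called lower, beside 4.28% of all genes tested, and none of the 17 was at 0. Sham female 1 had the highest sum, and sham male 3 came next at 452 CPM. Sham female 2 at 283 CPM and sham male 1 at 324 CPM lay within the MOC1 range. Their Tgfbr2 levels, 38.4 and 32.8 CPM, were nonetheless above every MOC1 library. Without sham female 1 the log2 fold change of Tgfbr2 was -0.46 (adjusted p = 0.258), and with the endothelial and mural share as a term it was -0.30 ± 0.19 (SE, adjusted p = 0.507). Without sham female 3 it was -1.01 (adjusted p = 0.0101), which passed. Tgfbr2 also passed with DESeq2 (-0.84, adjusted p = 0.0371) and under pan-neuronal scaling (-1.14, adjusted p = 0.0153). Pan-neuronal scaling lowers all genes, to a median of -0.30. Relative to the median of all genes, Tgfbr2 stood at -0.84 under that scaling and -0.81 under TMM. The part of these markers in the Tgfbr2 value was not tested beyond these fits.

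Tgfbr1 (chr4:47353222-47414931, plus strand), the signalling kinase that TGFBR2 activates, had a lowest, median and highest level of 19.4, 28.9 and 33.9 CPM in MOC1 libraries. Levels in sham females were 34.1, 36.0 and 31.7 CPM, and in sham males 25.6 and 20.2 CPM. Over both sexes the change was -0.13 ± 0.20 (SE, 95% interval -0.56 to 0.30, adjusted p = 0.832). The sexes went opposite ways, with all 3 MOC1 females below all 3 sham females and all 3 MOC1 males above both sham males. The log2 fold change was -0.58 ± 0.22 in females (SE, adjusted p = 0.157) and 0.46 ± 0.25 in males (SE, adjusted p = 0.715). The difference between the sexes was -1.05 ± 0.33 (SE, 95% interval -1.74 to -0.35), with an unadjusted p of 0.00531 and an adjusted p of 1.00 in edgeR's 4-group fit, so it did not hold over all genes tested. The log2 ratio of Tgfbr1 to Tgfbr2 was 0.16 ± 0.48 in MOC1 libraries and -0.42 ± 0.79 in sham libraries (SD, exact permutation p = 0.162, adjusted p = 0.259).

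Il6ra (chr3:89864059-89913196, minus strand), the alpha chain that captures interleukin-6, was the lowest and most uneven of the 10. It had 21, 26 and 108 counts in MOC1 females and 33, 0 and 39 counts in MOC1 males. It had 171, 28 and 0 counts in sham females and 28 and 20 counts in sham males. Each arm thus held 1 library with no count and 1 far above its others. A count of 0 allows a level of up to 0.200 CPM in MOC1 male 2 and up to 0.180 CPM in sham female 3, from counting error alone. The log2 fold change was -0.01 ± 1.03 (SE, 95% interval -2.17 to 2.14, adjusted p = 0.997), the widest of the 10. Il6st, the signal-transducing gp130 chain shared by the whole interleukin-6 family, was abundant at 1031 ± 89.7 CPM in MOC1 libraries and 1107 ± 108 CPM in sham libraries (SD, log2 fold change -0.11 ± 0.08, SE, adjusted p = 0.511). The log2 ratio of Il6ra to Il6st did not differ beyond its spread, at -8.76 ± 1.20 in MOC1 libraries and -9.00 ± 1.52 in sham libraries (SD, exact permutation p = 0.669).

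Il4ra (chr7:125552120-125579474, plus strand), the alpha chain common to interleukin-4 and interleukin-13 receptors, had the highest CPM of the 10. Its lowest, median and highest levels were 46.0, 69.3 and 81.8 CPM in MOC1 libraries. In sham females it stood at 66.7, 67.0 and 42.8 CPM, and in sham males at 67.2 and 51.9 CPM. The arms overlapped, with 4 MOC1 libraries above the highest sham library, and the log2 fold change was 0.15 ± 0.15 (SE, 95% interval -0.16 to 0.45, adjusted p = 0.697). Il13ra1 (chrX:36112110-36171259, plus strand), which joins it to bind interleukin-13, had 14.7, 21.4 and 26.3 CPM as its lowest, median and highest levels in MOC1 libraries. Sham females had 29.9, 14.9 and 13.6 CPM, and sham males 22.7 and 15.7 CPM. The highest library was a sham one and so was the lowest, and the change was 0.12 ± 0.23 (SE, 95% interval -0.37 to 0.60, adjusted p = 0.870).

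No difference in the balance of these 2 chains was detected. The log2 ratio of Il4ra to Il13ra1 was 1.62 ± 0.26 in MOC1 libraries and 1.62 ± 0.35 in sham libraries (SD), a difference of -0.01 (exact permutation p = 0.968). This ratio had the smallest SD of the 8 in each arm. Il2rg, the common gamma chain that pairs with IL-4 receptor alpha in blood cells, was near the detection limit at 0.972 ± 0.962 CPM in MOC1 libraries and 1.17 ± 0.694 CPM in sham libraries (SD). The log2 ratio of Il4ra to Il2rg was 5.73 ± 0.82 in MOC1 libraries and 5.27 ± 0.87 in sham libraries (SD, exact permutation p = 0.383).

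Il17ra (chr6:120463247-120487559, plus strand), the shared chain of interleukin-17 receptors, had the largest positive value. Its lowest, median and highest levels were 3.43, 6.49 and 9.12 CPM in MOC1 libraries. The sham females had 3.80, 3.67 and 1.12 CPM, and the sham males 5.53 and 3.15 CPM. Of the 6 MOC1 libraries, 4 lay above the sham range and the other 2 lay within it. The log2 fold change was 0.87 ± 0.47 (SE, 95% interval -0.12 to 1.85, adjusted p = 0.351), and no difference was called. The coefficient of variation was 36.0% in MOC1 libraries and 45.8% in sham libraries, against 10.4% and 13.3% from counting error alone at counts of 37 to 137 in MOC1 libraries and 19 to 87 in sham libraries. Il17rc, its partner for interleukin-17A, averaged 5.89 ± 5.06 CPM in MOC1 libraries and 6.97 ± 1.68 CPM in sham libraries (SD). As a log2 ratio, Il17ra to Il17rc was 0.61 ± 1.92 in MOC1 libraries and -1.0 ± 0.79 in sham libraries (SD, exact permutation p = 0.128, adjusted p = 0.256).

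Il10rb (chr16:91406164-91425834, plus strand), a chain shared by receptors of interleukin-10, interleukin-22 and interferon lambda, varied least between libraries, with a coefficient of variation of 12.5% in MOC1 libraries and 10.7% in sham libraries, the smallest of the 10 in each arm. Its lowest, median and highest levels were 33.4, 40.0 and 46.9 CPM in MOC1 libraries. Levels in sham females were 41.2, 43.4 and 44.7 CPM, and in sham males 53.2 and 42.2 CPM. The arms overlapped and the change was -0.17 ± 0.13 (SE, 95% interval -0.44 to 0.10, adjusted p = 0.546). Under pan-neuronal scaling, which lowers all genes, it was called lower at -0.44 (adjusted p = 0.0339). Il10ra, the ligand-binding chain for interleukin-10, averaged 5.03 ± 2.27 CPM in MOC1 libraries and 3.21 ± 1.68 CPM in sham libraries (SD). The Il10rb to Il10ra log2 ratio was 2.96 ± 0.52 in MOC1 libraries and 3.75 ± 0.70 in sham libraries (SD, exact permutation p = 0.0671, adjusted p = 0.196).

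Tnfrsf1a (chr6:125349362-125362484, plus strand), the death-domain receptor of TNF, had 22.6, 28.6 and 33.1 CPM as its lowest, median and highest levels in MOC1 libraries. In sham females it stood at 41.2, 26.1 and 24.7 CPM, and in sham males at 27.1 and 25.5 CPM. Apart from sham female 1, the highest of all 11, the sham libraries lay within the MOC1 range. The change was -0.07 ± 0.18 (SE, 95% interval -0.45 to 0.30, adjusted p = 0.896). Tnfrsf1b, the other TNF receptor, averaged 6.02 ± 2.56 CPM in MOC1 libraries and 3.72 ± 2.44 CPM in sham libraries (SD). For Tnfrsf1a to Tnfrsf1b the log2 ratio was 2.19 ± 0.65 in MOC1 libraries and 2.95 ± 0.53 in sham libraries (SD, exact permutation p = 0.0736, adjusted p = 0.196).

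**Figure D4:**
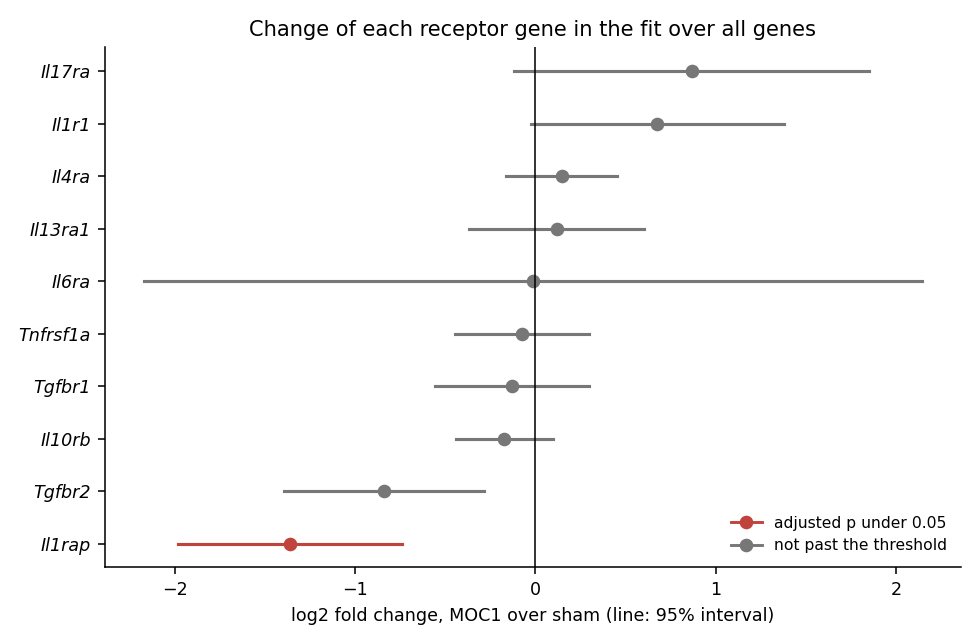
Log2 fold change of each receptor gene, MOC1 over sham, as a point with its 95% interval (edgeR fit over all genes, sex as a term), in order of size. Il1rap at -1.36 is coloured as the member past an adjusted p of 0.05, and Il6ra has the widest interval, -2.17 to 2.14.

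Ordered by level per kilobase of exon, Il10rb, Tnfrsf1a and Il4ra led the 10 at 11.1, 10.9 and 10.5 CPM per kilobase over the 11 libraries, each above at least 74.6% of the genes tested. Il13ra1 at 5.52, Tgfbr1 at 4.31 and Tgfbr2 at 4.02 CPM per kilobase formed the middle. Il1r1 followed at 2.03, Il1rap at 0.985, Il17ra at 0.577 and Il6ra at 0.330 CPM per kilobase. In 5 of the 9 pairs of neighbours in this order the ranges overlapped in both arms. Tgfbr2 and Il1r1 overlapped in MOC1 libraries, from 2.50 and up to 3.85 CPM per kilobase, but stood apart in sham libraries, from 2.40 and up to 2.11. Il4ra and Il13ra1 stood apart in MOC1 libraries, from 7.66 and up to 7.10 CPM per kilobase, but overlapped in sham libraries, from 7.12 and up to 8.05. Il1r1 and Il1rap stood apart in MOC1 libraries, at 1.63 to 3.85 and 0.227 to 0.832 CPM per kilobase, but overlapped in sham libraries, at 0.436 to 2.11 and 1.12 to 1.64 CPM per kilobase. Il1rap and Il17ra overlapped in MOC1 libraries, where Il17ra had 0.396 to 1.05 CPM per kilobase, and stood apart in sham libraries, where Il17ra had 0.130 to 0.639.

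Within females, 1 of the 10 was called, Il1rap at -1.51 ± 0.41 (log2 fold change and SE, adjusted p = 0.0428), beside 4.48% of all genes tested. Within males none of the 10 was called by edgeR, beside 1.25% of all genes, and Il1rap stood at -1.17 ± 0.44 (SE, adjusted p = 0.377). At an unadjusted p under 0.05 there were 3 receptors in females, beside 2903 of the 16817 genes tested, and 1 in males, beside 1337. With only the libraries of that sex in the fit, none of the 10 was called in either sex. The Il1rap values of the sexes differed by -0.34 ± 0.60 (SE, 95% interval -1.61 to 0.93, unadjusted p = 0.577). No gene was called for the sex by tumour interaction, 0% of those tested, by edgeR or by DESeq2, with 708 genes at an unadjusted p under 0.05 in edgeR. Between females and males, with the arm as a term, 0.0416% of genes and none of the 10 receptors were called by edgeR, and none of the 10 had an unadjusted p under 0.05.

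Cytokine genes ranged from no count at all to 23.5 CPM on average for Tgfb3, a TGF-beta isoform gene. Of 22 ligand genes, 13 passed the filter, 4 with a positive and 9 with a negative log2 fold change. Their median was -0.88, against -0.03 over all genes tested. The list median was -0.35 without sham female 1, MOC1 female 3 and MOC1 male 2. Of the 13, 1 was called lower, beside 4.28% of all genes tested: Tgfb2, a TGF-beta isoform made by many cell types. It averaged 9.72 ± 2.34 CPM in MOC1 libraries and 18.6 ± 5.57 CPM in sham libraries (SD), with a log2 fold change of -0.89 ± 0.22 (SE, adjusted p = 0.0174). Its MOC1 libraries all lay below its sham libraries, as for 4.18% of all genes tested. The call was lost without sham female 1 (-0.75, adjusted p = 0.0825) and without sham male 3 (-0.86, adjusted p = 0.0614). Tgfb3 at -0.31 ± 0.16 (SE, adjusted p = 0.346) and Il18, an interleukin-1 family member, at -0.88 ± 0.37 (SE, adjusted p = 0.200) did not pass. Il13, Il17a and Il22 had 0 counts in all 11 libraries, which allows at most 0.279 CPM in the shallowest library, and Il4 had 2 counts in 1 library. Il1b had 29 counts over the 6 MOC1 libraries and 100 over the 5 sham libraries. Tnf had 130 counts over the MOC1 libraries and 58 over the sham libraries, and neither gene was called.

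Related receptor chains moved in both directions, with 2 of 28 tested called higher and 2 called lower, at a median of -0.21. Over all genes tested 2.34% were called higher and 4.28% lower, at a median of -0.03. Osmr, the oncostatin M receptor, averaged 97.6 ± 23.4 CPM in MOC1 libraries and 54.7 ± 18.2 CPM in sham libraries (SD), a log2 fold change of 0.77 ± 0.13 (SE, adjusted p = 0.00105). Il31ra, which joins OSMR to bind the itch cytokine interleukin-31, averaged 62.1 ± 14.6 CPM in MOC1 libraries and 27.2 ± 20.7 CPM in sham libraries (SD), a change of 1.35 ± 0.24 (SE, adjusted p = 0.00160). The arms overlapped for both, and both were also called under pan-neuronal scaling. In the 4-group fit Il31ra stood at 2.05 ± 0.23 in females (SE, adjusted p = 0.000119) and 0.57 ± 0.25 in males (SE, adjusted p = 0.552). The difference between the sexes was 1.48 ± 0.33 (SE, 95% interval 0.78 to 2.18, unadjusted p = 0.000332) and did not pass adjustment over all genes (adjusted p = 0.913). Nociceptor markers summed to 5505 ± 430 CPM in MOC1 libraries and 4686 ± 52.6 CPM in sham libraries (SD, two-sided exact permutation test, adjusted p = 0.0146), ranging between 4946 and 5951 CPM and between 4619 and 4766 CPM, with 3 of 8 called higher and none at 0. Their part in the values of Osmr and Il31ra was not tested. Tgfbr3, the betaglycan co-receptor that presents TGF-beta, averaged 43.8 ± 5.85 CPM in MOC1 libraries and 75.0 ± 13.4 CPM in sham libraries (SD), a change of -0.77 ± 0.14 (SE, adjusted p = 0.00132). Acvr2a, an activin receptor, averaged 42.4 ± 11.1 CPM in MOC1 libraries and 77.7 ± 3.91 CPM in sham libraries (SD), a change of -0.89 ± 0.16 (SE, adjusted p = 0.00157). Lifr, the leukaemia inhibitory factor receptor, was the most abundant of the list at 1133 ± 105 CPM in MOC1 libraries and 1041 ± 139 CPM in sham libraries (SD) and did not pass (adjusted p = 0.541).

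Downstream of the interleukin-1, interleukin-17 and TNF receptors, 7 of 30 genes were called lower by edgeR and none higher, with a median of -0.31. The shares over all genes tested were 4.28% lower and 2.34% higher, with a median of -0.03. DESeq2 called 7 genes of the list lower and 1 higher. Rel, which encodes an NF-kappaB subunit, averaged 5.75 ± 2.51 CPM in MOC1 libraries and 19.7 ± 9.74 CPM in sham libraries (SD), a log2 fold change of -1.70 ± 0.35 (SE, adjusted p = 0.00507). Nfkb2, which encodes another, averaged 4.35 ± 3.41 CPM in MOC1 libraries and 13.3 ± 1.71 CPM in sham libraries (SD), a change of -1.64 ± 0.44 (SE, adjusted p = 0.0271). Peli2, a ubiquitin ligase of interleukin-1 receptor complexes, fell by 0.78 on the log2 scale (adjusted p = 0.0216) and Tab2, an adaptor of the TAK1 kinase, fell by 0.38 (adjusted p = 0.0347). The adaptor gene Tollip (0.08, adjusted p = 0.752) and Map3k7, which encodes TAK1 (0.05, adjusted p = 0.880), did not pass. The count of 7 rested on each library. It was 4 without MOC1 female 1, sham female 1 or sham male 3, 3 without MOC1 male 1 or sham female 3, 2 without MOC1 female 2, 1 without sham female 2, and 5 or 6 without any other. Rel stayed called in all 11 of these fits, Peli2 in 8, Nfkb2 in 6 and Tab2 in 5, where the highest adjusted p were 0.0261, 0.0665, 0.0721 and 0.140.

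Known feedback and target genes of these pathways were lower where they changed, 7 of 28 being called lower and none higher, with a median of -0.53. Among all genes tested, 4.28% were called lower and 2.34% higher, with a median of -0.03. Socs3, a feedback inhibitor of interleukin-6 family signalling, averaged 97.4 ± 15.8 CPM in MOC1 libraries and 227 ± 50.1 CPM in sham libraries (SD), a log2 fold change of -1.20 ± 0.13 (SE, adjusted p = 1.55e-05). Pmepa1, a TGF-beta target that restrains SMAD signalling, averaged 62.4 ± 13.0 CPM in MOC1 libraries and 134 ± 11.8 CPM in sham libraries (SD), a change of -1.09 ± 0.12 (SE, adjusted p = 1.79e-05). Cxcl10, a chemokine induced by interferon and NF-kappaB, averaged 18.5 ± 5.67 CPM in MOC1 libraries and 70.1 ± 36.3 CPM in sham libraries (SD), a change of -1.84 ± 0.23 (SE, adjusted p = 4.62e-05). Junb, an immediate-early AP-1 subunit gene, had a change of -1.03 ± 0.14 (SE, adjusted p = 0.000142). Socs5 at -0.05 and Socs2 at 0.04 did not pass. With any 1 library left out, 7 genes of the list were still called lower and at most 1 higher, and all 4 genes named here as called stayed so.

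The receptor shedding list, which holds proteases that release receptor ectodomains such as that of TNFRSF1A together with their regulators, had 4 of 7 called lower and none higher, with a median of -0.95. Beside this short list, 4.28% of all genes tested were called lower and 2.34% higher, with a median of -0.03. Adam17, the main TNF receptor sheddase, averaged 29.8 ± 3.24 CPM in MOC1 libraries and 58.2 ± 10.4 CPM in sham libraries (SD), a log2 fold change of -0.97 ± 0.14 (SE, adjusted p = 0.000158). Timp3, which encodes its inhibitor, averaged 329 ± 80.8 CPM in MOC1 libraries and 916 ± 352 CPM in sham libraries (SD), a change of -1.43 ± 0.17 (SE, adjusted p = 3.34e-05). Rhbdf1, a cofactor for ADAM17 maturation, fell by 0.95 (adjusted p = 0.0188) and Erap1, an aminopeptidase reported to aid TNFR1 shedding, fell by 0.64 (adjusted p = 0.0417). The sheddase genes Bace1 at 0.14 (adjusted p = 0.444) and Adam10 at -0.28 (adjusted p = 0.313) did not pass. The count was 2 without sham female 1 or sham female 2, and Rhbdf1 lost its call there (adjusted p = 0.0526 and 0.0706). Erap1 was called in 3 of 11 such fits, with adjusted p up to 0.156, while Adam17 and Timp3 were called in all 11.

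The JAK-STAT list had 2 of 17 genes called higher and none lower, with a median of -0.06. Over all genes tested, 2.34% were called higher and 4.28% lower, with a median of -0.03. Jak1, a kinase of interleukin-6, interleukin-4 and interleukin-10 family receptors, averaged 501 ± 44.0 CPM in MOC1 libraries and 393 ± 62.4 CPM in sham libraries (SD), a log2 fold change of 0.34 ± 0.08 (SE, adjusted p = 0.0105). Stat3, the transcription factor it activates, averaged 592 ± 54.3 CPM in MOC1 libraries and 478 ± 30.7 CPM in sham libraries (SD), a change of 0.30 ± 0.07 (SE, adjusted p = 0.0151). Its MOC1 libraries all lay above its sham libraries, as for 2.15% of all genes tested. Under pan-neuronal scaling neither was called, at 0.06 for Jak1 and 0.03 for Stat3. Without sham male 3 the adjusted p of Stat3 was 0.0510. Ptpn11 at 0.08 and Stat6 at -0.06 did not pass. Of 15 SMAD signalling genes none was called by edgeR, with 4 at an unadjusted p under 0.05 and 1 called lower by DESeq2. Over all genes, 3119 of 16817 had such an unadjusted p in the edgeR fit with DESeq2 size factors. Fkbp1a, which holds TGFBR1 inactive, stood at -0.09 and Zfyve9, the SARA anchor, at 0.01.

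Scaling moved the whole table, and with it the lists and receptors. The median of all genes tested was -0.30 when libraries were scaled to the pan-neuronal list and 1.11 when scaled to the satellite glia list. Relative to that median Il1rap stood at -1.33 under TMM, -1.33 under pan-neuronal and -1.39 under satellite glia scaling, and Il1r1 at 0.70, 0.67 and 0.70. A change of scaling shifts all genes by nearly the same amount, so this likeness was fixed in advance and tests nothing. Of the 15 list genes named here as lower, 15 stayed called under pan-neuronal scaling, while under satellite glia scaling 5 kept their sign and 1, Cxcl10, its call. Pan-neuronal scaling lowered all genes by nearly the same amount, so genes already called lower were bound to keep that direction. The 15 kept calls therefore test nothing. Satellite glia scaling raised all genes by nearly the same amount, so the lost signs and calls do not tell glia-linked genes from others. Satellite glia markers were lower in the same arm as these genes and Il1rap, and their part in the lists' values cannot be told apart from the arm.

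**Figure D5:**
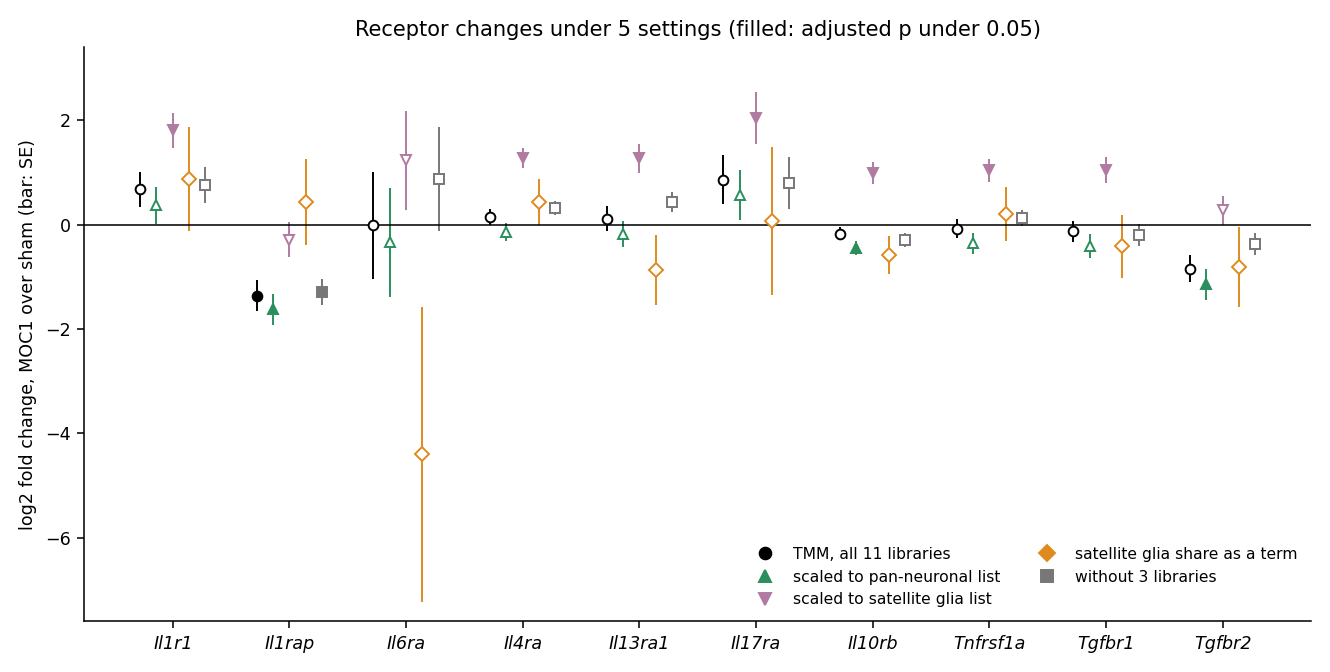
Log2 fold change of each receptor gene, MOC1 over sham, under 5 settings (bar: SE; filled symbol: adjusted p under 0.05). Il1rap lies at -1.36 under TMM, -1.62 under pan-neuronal scaling, -0.28 under satellite glia scaling, 0.43 with the satellite glia share as a term and -1.29 without 3 libraries, and satellite glia scaling, which moves the median of all genes to 1.11, puts 7 other receptors past the threshold.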

How the data were processed

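Poly(A)-selected RNA of sorted DiI+ trigeminal neurons gave 11 single-end libraries, per the labels' protocols, grouped by arm and sex from their titles. The deposited files held the authors' raw stranded read counts per gene from STAR, not normalized, per the file headers. Per the submitters' processing notes, the tools were Trimmomatic 0.35, STAR 2.7.1a and RSEM, and the build was GRCm38 (mm10). Rows that name no gene held 18.7% to 21.5% of counts and were left out. Reads with several alignments are not assigned to a gene in such files.

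The analysis used edgeR 4.0.16 in R 4.3.3, and filterByExpr kept 16817 genes. After TMM scaling, MOC1 was tested against sham by quasi-likelihood F test in a model that also held sex, with Benjamini-Hochberg adjustment over all genes tested and a threshold of 0.05. A 4-group fit gave the contrasts within each sex and the interaction. Levels and chain ratios use CPM after TMM scaling, and marker sums use CPM of all gene counts without TMM. Exon length per gene came from GENCODE M21, in which 55141 of 55401 identifiers matched. Chain ratios, with 0.5 CPM added, and marker sums were compared by two-sided exact permutation over 462 regroupings (smallest p 0.00216), adjusted over 8 ratios or over the marker lists. A 0 was given the floor of 3 counts per library. Intervals and floors cover counting error or the fit only.

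Named genes are the 10 receptors, partners in the ratios, up to 4 called genes with the smallest p and 2 uncalled ones with the highest CPM per pathway list, and the 3 genes most like a called receptor with at least 5 CPM. The receptors and lists were chosen with earlier results of these data known. Alternatives were DESeq2 1.42.0, its size factors in edgeR, total counts, scaling to 2 marker lists, other filters (none, or 1 CPM in 5 libraries), voom with quality weights (limma 3.58.1), no sex term, a replicate block, 2 marker shares as terms, 0.1 CPM added to ratios, each library left out, and sham female 1, MOC1 female 3 and MOC1 male 2 left out together. The edgeR step was checked on simulated counts. No 2 libraries of a group agreed within sampling noise.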

Additional observations from a re-analysis of the deposited data

Results flagged for a closer look

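Of 20 groups of receptor levels checked (10 genes in 2 arms), 2 held a library set far from the others by Dixon's gap test on log2(CPM + 0.5), where chance alone gives about 1 in 20. Il1r1 stood at 2.775 CPM in sham female 3, with the other 4 sham libraries at 9.22 to 13.4 CPM. Tnfrsf1a stood at 41.15 CPM in sham female 1, with the other 4 sham libraries at 24.7 to 27.1 CPM. Sham female 1 is also the library with the highest endothelial and mural marker sum, 1713 CPM, and its part in the Tnfrsf1a value was not tested beyond leaving that library out, which gave a log2 fold change of 0.09 (adjusted p = 0.884). The flags depended on the scale. On CPM itself 3 groups were past the critical value: Tnfrsf1a in sham libraries (gap over range 0.856) and Il6ra in both arms, at 7.94 CPM in 1 MOC1 library (0.687) and 10.5 CPM in 1 sham library (0.830). Il1r1 in sham libraries was not (0.605).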

How the results depend on the processing

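Il1rap kept its direction in 23 of 24 alternatives and its call in 22. The exceptions were satellite glia scaling and the satellite glia share as a term (0.43). The receptor count of 1 became 2 with DESeq2, without a low-count filter, and without a sex term (each adding Tgfbr2), 3 under pan-neuronal scaling (Il1rap, Il10rb, Tgfbr2), 7 under satellite glia scaling (all but Il1rap, Il6ra and Tgfbr2, all higher) and 0 with the satellite glia share as a term, and lay between 1 and 2 with 1 library left out. Over all genes, 1113 were called (394 higher, 719 lower), against 2194 (29 higher, 2165 lower) under pan-neuronal scaling, 10229 (10185 higher, 44 lower) under satellite glia scaling and 0 with that share as a term. Leaving out 1 library gave 816 to 1129. Interaction calls lay between 0 and 2 with 1 library left out. Fits on 1 sex gave 249 in females (753 with shared spread) and 366 in males (211).

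Reversed signs, none called under TMM: under satellite glia scaling Il6ra 1.24, Il10rb 0.99, Tnfrsf1a 1.04, Tgfbr1 1.05 and Tgfbr2 0.27; under pan-neuronal scaling Il4ra -0.14 and Il13ra1 -0.17; with the satellite glia share Il13ra1 -0.86 and Tnfrsf1a 0.20; with the endothelial share Il6ra 1.26 and Tnfrsf1a 0.14; with voom Il6ra 0.51 and Tnfrsf1a 0.0352; without the 3 libraries Il6ra 0.88 and Tnfrsf1a 0.13; with the replicate block Il6ra 0.64. Leaving out 1 library gave Il6ra -0.55 to 1.05, Il13ra1 -0.000257 to 0.37, Tnfrsf1a -0.15 to 0.0943, Il6ra over Il6st -0.23 to 0.82 and Il4ra over Il13ra1 -0.13 to 0.12. The causes were not tested. The called ratio count of 1 was between 0 and 1 with 1 library left out and 0 without the 3 libraries, where Il1rap over Il1r1 was -2.07 and its unadjusted p of 0.0286 was the smallest that 70 regroupings allow (adjusted p = 0.114). Same-numbered libraries correlated at -0.04 to 0.04, which detects no pairing but cannot exclude one. The replicate block gave 1036 calls, with Il1rap at -1.50 (adjusted p = 0.0104). It ended the call of Tab2 (adjusted p = 0.0560). Without the 3 libraries Erap1 (-0.42, adjusted p = 0.159) and Rhbdf1 (-0.75, adjusted p = 0.0503) lost their calls. Spread between libraries exceeded counting error for Il6ra (100% against 16.3% in MOC1 libraries, 140% against 14.2% in sham libraries).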
